A study of Homo sapiens with 42 samples.

Results

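KDM2A, mapped by chromatin immunoprecipitation followed by sequencing (ChIP-seq), had 3102 narrow peaks on the standard chromosomes of NCI-H661, an untreated parental line of large cell lung carcinoma that expresses DPPA2 and DPPA4. The members were chosen by the peak calls of this library, all peaks of the single deposited KDM2A list, out of 190833 narrow peaks in the 6 lists of this kind in the series. They were split by an overlap of at least 1 bp with 4 other peak lists of the same line, DPPA2 replicates 1 and 3 and DPPA4 replicates 2 and 3. Of the KDM2A peaks, 1938 overlapped all 4 lists, 861 overlapped 1 to 3 and 303 overlapped none. The other libraries used here were SUZ12 (1 library) and the histone marks H3K27ac, H2AK119ub, H3K36me2, H3K36me3, H3K4me1 and H3K9me3 (2 replicates each) in NCI-H661. H3K27ac and H2AK119ub were also used in NCI-H1299, a lung adenocarcinoma line with stable inducible FLAG-DPPA2 and V5-DPPA4 transgenes, after 7 days of doxycycline at 2 µg/mL (DOX) or of water (CTRL), with 2 replicates each. NCI-H1299 without induction does not express DPPA2 or DPPA4, and KDM2A was not profiled there, so NCI-H661 positions were used. KDM2A rests on 1 library with 1 antibody and no knockout control here, and its peaks are not replicates of anything.

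KDM2A carries a CXXC zinc finger that binds CpG dinucleotides without DNA methylation, and a JmjC domain that removes methyl groups from H3K36me2. It is known for sitting on CpG islands, the CpG-dense stretches at most promoters, and for keeping them poor in H3K36me2, a mark of gene bodies and intergenic chromatin. H2AK119ub is deposited by the Polycomb complex PRC1, SUZ12 is a core subunit of the Polycomb complex PRC2, and H3K27ac marks active promoters and enhancers. DPPA2 and DPPA4 are paired DNA-binding proteins of the early embryo that bind CpG-rich promoters.

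The sequences at the summits show the kinds of site in the KDM2A list. Each is 200 bp of the hg38 reference around the summit with every CG in capitals. NOTUM, NKX6-2 and PSMD7 stand for CpG-island promoters, the first with the highest fold among promoter peaks with all 4 lists and no tRNA gene, the second with SUZ12 and no H3K27ac, the third with none of the DPPA lists. The next 4 are at tRNA genes, AGBL5 and WNT11 (the nearest gene of the second) with all 4 lists, TRH-GTG1-7 with none and TRL-CAG1-7 with 3. Their labels name the tRNA genes under the whole peak. Where the peak is wider than 200 bp, a named gene can lie outside the window. The peak nearest FCGR1A has the highest KDM2A fold of the list.
NOTUM promoter, chr17:81959855-81960054, hg38, + strand: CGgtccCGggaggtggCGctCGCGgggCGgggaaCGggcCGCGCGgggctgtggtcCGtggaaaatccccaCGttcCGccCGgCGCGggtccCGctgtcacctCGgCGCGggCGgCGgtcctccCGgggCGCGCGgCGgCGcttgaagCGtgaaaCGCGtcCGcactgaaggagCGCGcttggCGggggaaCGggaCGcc
NKX6-2 promoter, chr10:132785637-132785836, hg38, + strand: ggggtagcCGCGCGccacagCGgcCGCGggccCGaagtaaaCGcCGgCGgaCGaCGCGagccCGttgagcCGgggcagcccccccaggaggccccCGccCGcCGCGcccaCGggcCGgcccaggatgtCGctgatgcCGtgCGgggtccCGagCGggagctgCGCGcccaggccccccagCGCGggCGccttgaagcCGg
PSMD7 promoter, chr16:74296968-74297167, hg38, + strand: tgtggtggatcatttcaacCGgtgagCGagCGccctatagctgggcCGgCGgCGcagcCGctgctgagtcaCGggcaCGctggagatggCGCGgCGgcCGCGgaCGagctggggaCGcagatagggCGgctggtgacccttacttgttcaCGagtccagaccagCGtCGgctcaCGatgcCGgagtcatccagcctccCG
TRA-AGC8-1 and TRY-GTA2-1 near AGBL5, chr2:27050706-27050905, hg38, + strand: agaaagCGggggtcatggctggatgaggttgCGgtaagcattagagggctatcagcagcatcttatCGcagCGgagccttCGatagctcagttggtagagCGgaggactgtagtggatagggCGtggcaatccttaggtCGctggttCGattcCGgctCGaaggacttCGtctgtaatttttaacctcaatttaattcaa
TRP-AGG2-4 and TRP-TGG2-1, chr11:76235429-76235628, hg38, + strand: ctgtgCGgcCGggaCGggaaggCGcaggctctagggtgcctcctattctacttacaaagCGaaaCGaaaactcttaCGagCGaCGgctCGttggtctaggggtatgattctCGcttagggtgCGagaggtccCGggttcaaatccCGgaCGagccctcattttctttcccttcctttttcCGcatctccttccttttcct
TRH-GTG1-7, chr15:45198582-45198781, hg38, + strand: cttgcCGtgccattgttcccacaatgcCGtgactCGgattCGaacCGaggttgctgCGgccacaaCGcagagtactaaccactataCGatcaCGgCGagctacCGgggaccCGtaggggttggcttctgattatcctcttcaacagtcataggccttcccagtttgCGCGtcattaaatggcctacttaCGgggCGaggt
TRL-CAG1-7, chr6:26521135-26521334, hg38, + strand: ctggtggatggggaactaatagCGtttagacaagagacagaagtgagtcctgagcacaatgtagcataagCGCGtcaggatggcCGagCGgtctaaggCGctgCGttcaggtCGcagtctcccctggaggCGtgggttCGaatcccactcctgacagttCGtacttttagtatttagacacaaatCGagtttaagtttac
peak nearest FCGR1A, chr1:149708616-149708815, hg38, + strand: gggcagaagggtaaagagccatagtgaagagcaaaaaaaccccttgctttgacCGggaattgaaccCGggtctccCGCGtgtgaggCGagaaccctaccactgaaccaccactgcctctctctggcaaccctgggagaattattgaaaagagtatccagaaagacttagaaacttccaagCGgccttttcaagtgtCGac
These windows held 37 CGs at NOTUM, 32 at NKX6-2, 23 at PSMD7 and 7 at the peak nearest FCGR1A. The tRNA windows held 12 (AGBL5), 16 (WNT11), 16 (TRH-GTG1-7) and 12 (TRL-CAG1-7). Among the windows shown, the one with the highest KDM2A fold has the fewest CGs. Windows over a UTR were passed over when choosing them.

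The enrichment of KDM2A over its input (the peak caller's fold, a linear ratio) had a median of 5.54 and ran from 1.69 to 17.1. Peak width had a median of 215 bp and a highest value of 2211 bp. The −log10 q began at 1.30, the caller's limit, where UHRF2, ZNF317, SOCS1 and RRAS2 promoters sat at a fold of 3.90, and peaks outside that limit are not listed. A −log10 q of at least 3 was reached by 2199 peaks (70.9%), and 9 peaks had a log2 fold of 1 or less. Of all KDM2A peaks 93.6% overlapped a broad EPIC2 island of the same library. These islands were many more, 30041 at a log2 fold above 1, and reached 50.5% of protein-coding promoters, so the narrow peaks are the sharper and smaller of the pair of KDM2A lists. KDM2A, DPPA2, DPPA4 and SUZ12 came from double-crosslinked chromatin and shared 1 input. Islands with identical borders in the KDM2A list and in a SUZ12, DPPA2 or DPPA4 list carried the same input count in 100% of 27 to 188 cases, against 5.96% for H3K27ac replicate 1. Reads inside islands numbered 488201 for KDM2A and 1318183 to 6649708 for the histone marks, and these are not sequencing depths. As a check of the line, H3K27ac was found in both replicates at 3 of 5 epithelial promoters (EPCAM, KRT8 and KRT18) and in neither at KRT19 and CDH1. It was also found in both at SPI1, a haematopoietic gene, and at 1 of 5 endothelial promoters (PECAM1).

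The first question was how far KDM2A and DPPA2/4 occupy the same sites. All 4 DPPA lists were overlapped by 62.5% of KDM2A peaks (95% Wilson interval 60.8 to 64.2), 3 lists by 12.7%, 2 by 7.35%, 1 by 7.74% and none by 9.77% (8.77 to 10.9). These intervals, like all those below, cover counting error only. An overlap of 1 bp is lenient, as DPPA2 replicate 1 peaks reached 40282 bp. Requiring 25% of both peaks gave 13.2% with all 4 lists and 37.2% with none. For scale, all 4 lists had a peak at 33.1% of 20033 protein-coding promoters, each a window of 1500 bp on either side of the start and so wider than most peaks. Taken singly, DPPA2 replicates 1 and 3 were met by 84.9% and 75.3% of KDM2A peaks, and DPPA4 replicates 2 and 3 by 76.8% and 73.3%. Peaks with both DPPA2 lists and no DPPA4 list numbered 50, and peaks with both DPPA4 lists and no DPPA2 list numbered 4. The reverse share was far smaller, since KDM2A lay at 3.39% of 69813 and 8.02% of 26557 DPPA2 peaks, at 8.24% of 26352 and 6.81% of 30497 DPPA4 peaks and at 0.921% of 34512 SUZ12 peaks. In the 10% of each DPPA list with the highest fold, KDM2A lay at 18.3% and 22.7% of DPPA2 and 26.1% and 21.6% of DPPA4 peaks, and in the 10% with the lowest at 0.716% to 4.59%.

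Within the peaks called for both, KDM2A and DPPA folds were compared. Across these overlapping peaks, Spearman's rho between KDM2A and DPPA folds was 0.06 and 0.08 for DPPA2 (n = 2635 and 2337) and 0.07 and 0.11 for DPPA4 (n = 2381 and 2274). It was 0.02 for SUZ12 (n = 361). These are descriptions across peaks that share one input, and sites below either caller's limit are not among them. The median KDM2A fold was 5.57 with all 4 lists, 5.52 with 1 to 3 and 5.29 with none.

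What separated these classes was sequence and place. Median GC content was 75.3% with all 4 lists, 69.4% with 1 to 3 and 46.7% with none. The 200 bp around the summit held a median of 24, 20 and 8 CGs, against 18 at all protein-coding transcription start sites (TSSs). A CpG island, defined over 500 bp by a GC content of 55% or more and a CpG count at or above 0.65 of that predicted from base content, was present at 90.8% of all KDM2A peaks. With 0, 1, 2, 3 and 4 lists the share was 38.3%, 77.1%, 90.4%, 97.7% and 99.4%. Protein-coding promoters (1500 bp on either side of the TSS) held 70.8% of KDM2A peaks, and their share along the same steps was 27.4%, 56.7%, 66.7%, 78.1% and 78.3%. tRNA genes moved the other way, with 26.7%, 26.2%, 12.7%, 5.09% and 1.29%.

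**Figure D1:**
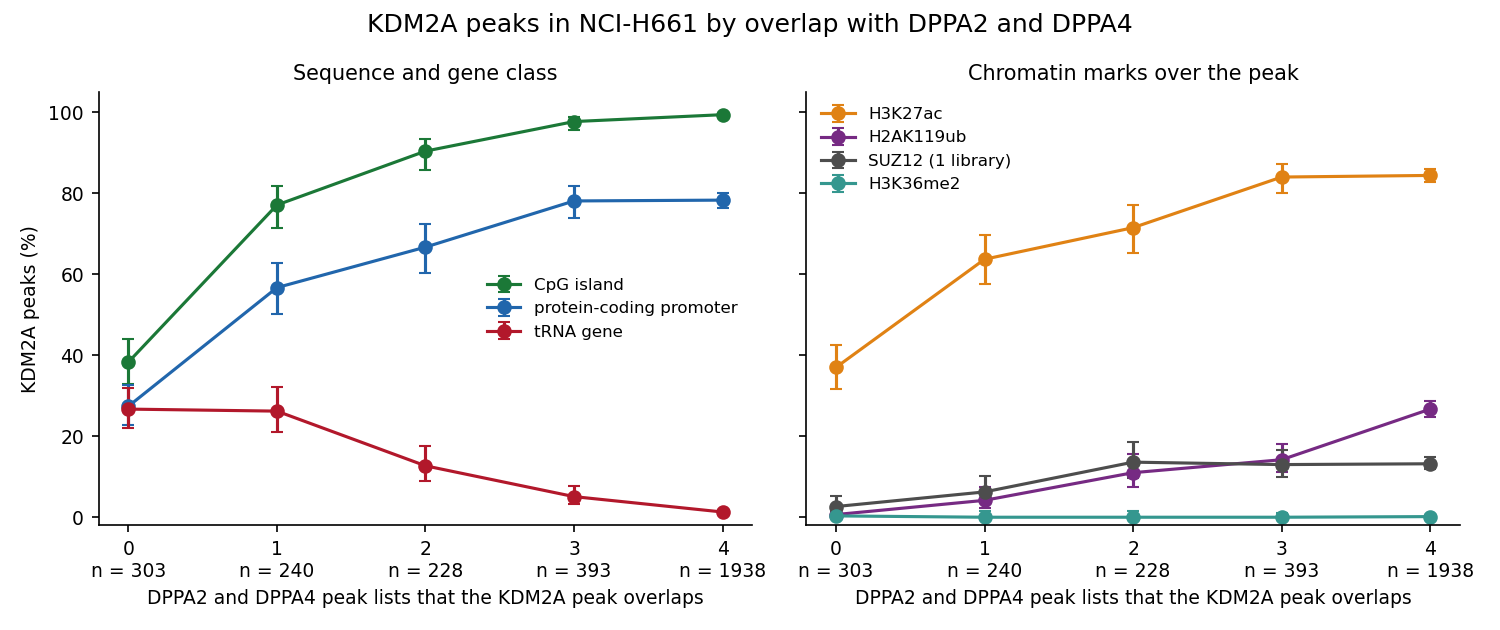
Share of KDM2A peaks in NCI-H661 (y axis, percent) by the number of DPPA2 and DPPA4 peak lists they overlap (x axis, with the number of peaks), for sequence and gene class (left) and for marks called over the peak in both replicates, or in 1 library for SUZ12 (right). Error bars are 95% Wilson intervals. CpG islands go from 38.3% to 99.4% and H2AK119ub from 0.660% to 26.7%, while tRNA genes go from 26.7% to 1.29%.

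With each peak counted once and RNA polymerase III (Pol III) genes taken first, 2156 KDM2A peaks lay at protein-coding promoters, 218 (7.03%) at tRNA genes, 27 at other Pol III genes, 179 at lncRNA promoters, 222 inside protein-coding genes and 300 in intergenic DNA. Of the 303 peaks without a narrow DPPA2 or DPPA4 peak, 110 (36.3%) had no EPIC2 island of either factor, and 50 had an island in all 4 libraries. By place, the 303 peaks were 108 intergenic, 81 tRNA, 72 promoter, 28 genic, 10 lncRNA and 4 other Pol III peaks. They were thus mixed, and 66.0% of them lay over 10 kb from a protein-coding TSS, against 15.8% with all 4 lists. Among the 303, 47 had a fold below 3, against 10 of the 2799 peaks with any list. Of those 47, 27 lay on chromosome 16 between positions 34572584 and 46401610, around its centromere, with a median GC content of 35.7% and H3K27ac in both replicates at 0 of them. The widest of them, chr16:46389639-46390901, had a fold of 2.27 over 1263 bp. The fold was highest at tRNA genes, with a median of 8.05, against 5.54 at promoters and 4.93 in intergenic DNA.

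**Figure D2:**
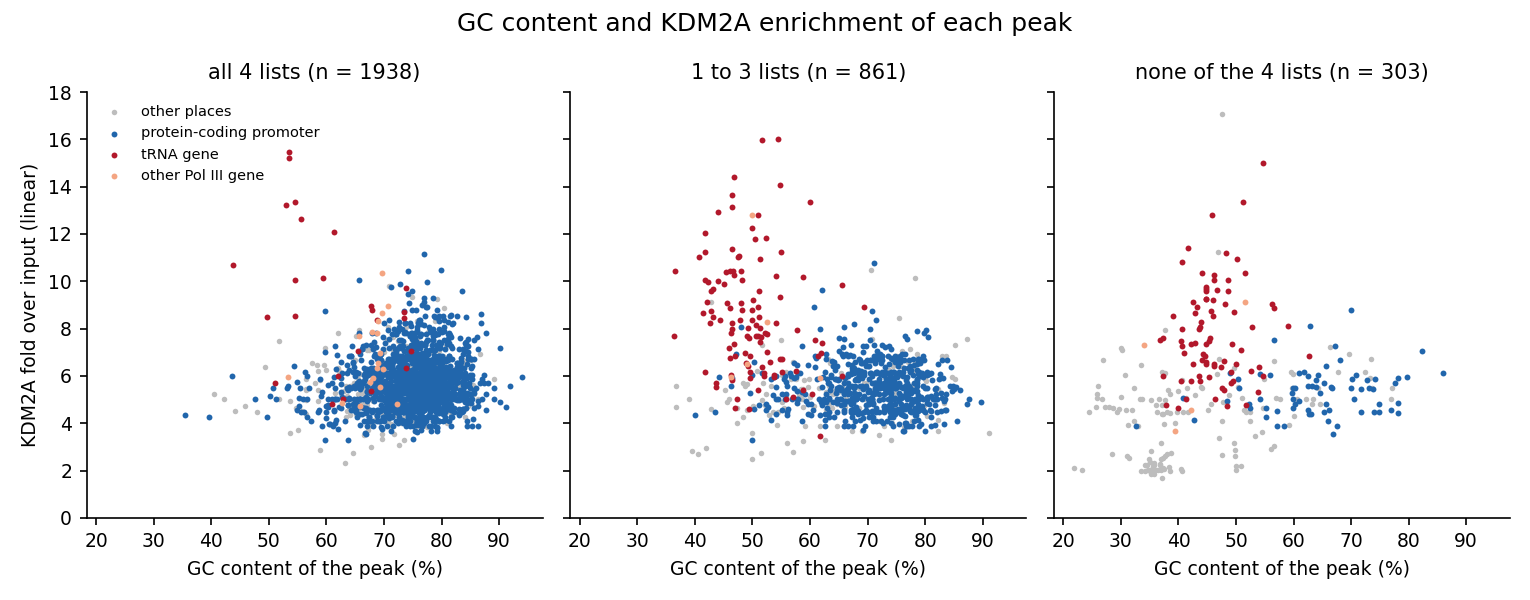
KDM2A fold over input (y axis, linear) against GC content of the peak (x axis, percent), 1 point a peak, for peaks with all 4, 1 to 3 or none of the DPPA2 and DPPA4 lists. Blue points are protein-coding promoters, red points tRNA genes, orange points other Pol III genes and grey points the rest, and the red points sit at a median GC of 48.6% and a median fold of 8.05.

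At promoters, KDM2A was a feature of CpG islands. Of 20033 protein-coding promoters 2111 (10.5%) had a KDM2A peak, 2109 of 14599 (14.4%) with a CpG island and 2 of 5434 (0.0368%) without one. The share was 25.6% at promoters with all 4 DPPA lists and 0.394% at those with none, and 17.0% at promoters with H3K27ac in both replicates. Among all promoters, 58.1% had H3K27ac in both replicates, 24.3% H2AK119ub in both, 5.49% H3K36me2 in both, 15.6% SUZ12 and 33.1% all 4 DPPA lists. Among CpG-island promoters with SUZ12, KDM2A lay at 202 of 703 (28.7%, 25.5 to 32.2) with H3K27ac and at 26 of 1558 (1.67%, 1.14 to 2.43) with H3K27ac in neither replicate.

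The promoter peaks with all 4 DPPA lists and the highest KDM2A fold included 4 that also covered tRNA genes, at AGBL5 (15.5), ALOXE3 (13.2), METTL26 (10.1) and LASP1 (10.0). Of the others, NOTUM, which encodes a secreted Wnt inhibitor, had a KDM2A fold of 11.1, DPPA2 folds of 49.1 and 38.3, DPPA4 folds of 20.2 and 16.7 and a SUZ12 fold of 12.8. NOTUM carried both H3K27ac and H2AK119ub in both replicates. SESTD1 (10.5), BEND3 (10.4, a DNA-binding chromatin protein), TM7SF2 (10.0, a sterol reductase), SFT2D3 (9.98), DIDO1 (9.87), the shared promoter of ANKRD37 and LRP2BP (9.74) and PWWP2B (9.60) followed. All 4 DPPA lists were present at each by the rule, but DPPA2 replicate 1 folds at these last 7 promoters ran from 5.79 at ANKRD37 and LRP2BP to 21.5 at SFT2D3. H3K27ac was present in both replicates at all of these except SESTD1 and ALOXE3.

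Of promoter peaks with KDM2A and none of the DPPA lists, those at LTA4H (12.8), TIA1 (11.4) and FMC1 (10.3) covered tRNA genes. With tRNA peaks left out, GSTA4, whose promoter peak also covers the small nuclear RNA gene RN7SK, had the highest fold, 9.14. AARS2, a mitochondrial alanyl-tRNA synthetase, had 8.81, the shared promoter of RPRD1B and TTI1 8.11, RPL36A, a ribosomal protein, 7.50, and PSMD7, a proteasome subunit, 7.25. LHFPL4 (7.06), NINL (6.69), NAA40 (6.40, an N-terminal acetyltransferase), FAM241B (6.17) and, at 6.13 each, ZNF84, ABHD17A and MTMR1 came next. From GSTA4 on, H3K27ac was present in both replicates at each of these promoters except FAM241B and ABHD17A, where it was in 1. H2AK119ub was present in 1 replicate at LHFPL4, FAM241B and MTMR1 and in none at the others.

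Among lists of genes, 6 of 15 promoters of H3K36 methyltransferases and demethylases (40.0%, 19.8 to 64.3) had KDM2A, beside 10.5% of all promoters and 14.4% of those with a CpG island. The 4 with the highest folds were NSD2 (7.54), KDM4A (6.69), NSD1 (6.41) and NSD3 (5.93), of which NSD1, NSD2 and NSD3 write H3K36me2 and KDM4A erases H3K36 methylation. Housekeeping genes had KDM2A at 5 of 20, among them CASC3 (9.48) and POLR2A (6.00), CXXC domain proteins at 3 of 12 (TET3 6.71, CXXC5 5.87 and KMT2A 5.02), DNA methylation genes at 3 of 13 and PRC2 subunits at 3 of 14 (PHF19 7.21, EPOP 5.69 and EZH2 4.65). Wnt signalling genes had 8 of 45, with NOTUM, DVL1 (6.72), AXIN2 (6.68) and FZD7 (6.31) the highest, and developmental transcription factors 7 of 46, with ZIC2 (7.31) and FOXD3 (6.69) the highest. Near the background were cytosolic ribosomal proteins at 7 of 50, spliceosome and RNA processing genes at 4 of 32, mitochondrial ribosomal proteins at 4 of 40, KRAB zinc fingers at 4 of 50 and PRC1 subunits at 2 of 25 (CBX8 5.33 and RNF2 4.56). Olfactory receptors had 1 of 35, and its peak covers a tRNA gene. Pluripotency and germline genes had 0 of 27, cancer-testis genes 0 of 25, and the 16 identity genes above 0. Of the 10 genes the study singled out, DLX1, DLX2, CYP26A1, VGF, SALL4, NSD2, ITGB8, LIN28B, FOXP2 and KDM2A, only NSD2 had KDM2A at its promoter, with 2 peaks (7.54 and 5.05) and all 4 DPPA lists, while 8 of the 10 promoters had all 4 DPPA lists. The lists are short and their intervals wide, and they were not tested.

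The marks over the peaks were described next, by the narrow DPPA2 and DPPA4 lists and not by their EPIC2 islands. H3K27ac was present in both replicates at 84.4% of peaks with all 4 lists (replicates 1 and 2 singly 84.9% and 92.5%), 646 of 861 with 1 to 3 and 37.0% with none (39.3% and 49.5%). The last class was uneven by place, with H3K27ac at 81.9% of its 72 promoter peaks, 7 of its 28 genic peaks, 24.7% of its 81 tRNA peaks and 17.6% of its 108 intergenic peaks. Within CpG-island promoters the 3 classes came close together, at 90.3% of 1509, 88.8% of 570 and 85.5% of 69 peaks, and their intervals overlap. Where a peak had an H3K27ac island, the island's median log2 fold over input was 2.95, 2.98 and 2.86 in replicate 1 and 3.37, 3.34 and 2.98 in replicate 2 for the 3 classes.

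H2AK119ub behaved differently. It was present in both replicates at 26.7% of peaks with all 4 lists (31.7% and 45.0% singly), 10.6% with 1 to 3 and 0.660% with none (1.32% and 2.31%). The share with 1 list was 4.17% and with 3 lists 14.2%. Within CpG-island promoters the shares were 28.6% (26.3 to 30.9), 13.3% (10.8 to 16.4) and 2.90% (0.799 to 9.97), so the 3 classes stayed apart there. H3K27ac and H2AK119ub were present together at 22.7% of peaks with all 4 lists and 0.330% with none. H2AK119ub islands of replicate 2 covered 4.74% of the genome and those of replicate 1 covered 1.65%.

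SUZ12 was present at 13.2% of peaks with all 4 lists, 11.3% with 1 to 3 and 2.64% with none, 361 peaks in all, and 106 of these had H3K27ac in neither replicate. The highest SUZ12 fold at a KDM2A peak was 52.1 at an intergenic peak, chr2:91477921-91478331, and another intergenic peak, chr2:90324084-90324230, had 30.9. They lay 2786291 and 1632468 bp from the nearest protein-coding TSS. The others of the 8 highest lay at developmental regulators, 32.3 at 2 peaks of NKX1-1, 30.0 at NKX6-2, 28.4 at POU3F1, 27.1 at UNCX and 25.1 at FOXF2, all homeobox, POU or forkhead transcription factors. These gene-linked peaks carried H2AK119ub in both replicates and H3K27ac in neither, and their KDM2A folds ran from 4.46 at FOXF2 to 7.33 at NKX6-2, on either side of the list's quartiles of 4.87 and 6.35. With H2AK119ub and SUZ12 but also H3K27ac in both replicates stood NOTUM, TBX2 (KDM2A 8.44), CDKN1C (7.96) and ZBTB46 (7.38).

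H3K36me2, the substrate of KDM2A, was rarely found over the peaks. It was present in both replicates at 4 of 3102 peaks (0.129%, 0.0502 to 0.331), at 9 in replicate 1 and at 42 in replicate 2. By class the shares were 0.155%, 0% (0 of 861, Wilson upper bound 0.444%) and 0.330%. The 2 promoters among them were those of DNMT3A, a DNA methyltransferase, with a KDM2A fold of 6.60, and AHCYL1, with 4.64 and none of the DPPA lists. Of the other marks in both replicates, H3K36me3 lay at 0.258% of all peaks, H3K9me3 at 0.258% and H3K4me1 at 1.93%.

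Starts of acetylated CpG-island promoters without KDM2A were poor in H3K36me2 too. Without KDM2A means without a narrow peak, and such starts can hold a KDM2A EPIC2 island. At the summits of peaks with all 4 lists, 0.155% and 1.08% of positions lay in an H3K36me2 island (replicates 1 and 2). At the 8891 acetylated CpG-island starts without KDM2A the values were 0.281% and 1.66%, and at the 1973 with KDM2A 0.0507% and 0.558%. With distance the order turned. At 2 kb the peaks with all 4 lists had 7.12% and 16.5%, and at 5 kb 6.73% and 20.1%, beside 5.35% and 9.27%, then 4.38% and 10.8%, around starts without KDM2A. Around starts with KDM2A the values were 6.97% and 12.8% at 2 kb and 6.06% and 14.9% at 5 kb. The islands cover 2.00% and 4.73% of the genome. The nearest H3K36me2 island lay at a median of 9.82 and 3.86 kb from peaks with all 4 lists, 23.0 and 24.6 kb from peaks with none, 5.21 and 5.86 kb from tRNA peaks, 11.3 and 5.53 kb from acetylated starts with KDM2A and 19.6 and 8.71 kb from those without. Peaks and starts are not replicates and the positions around them overlap, so no test was run.

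**Figure D3:**
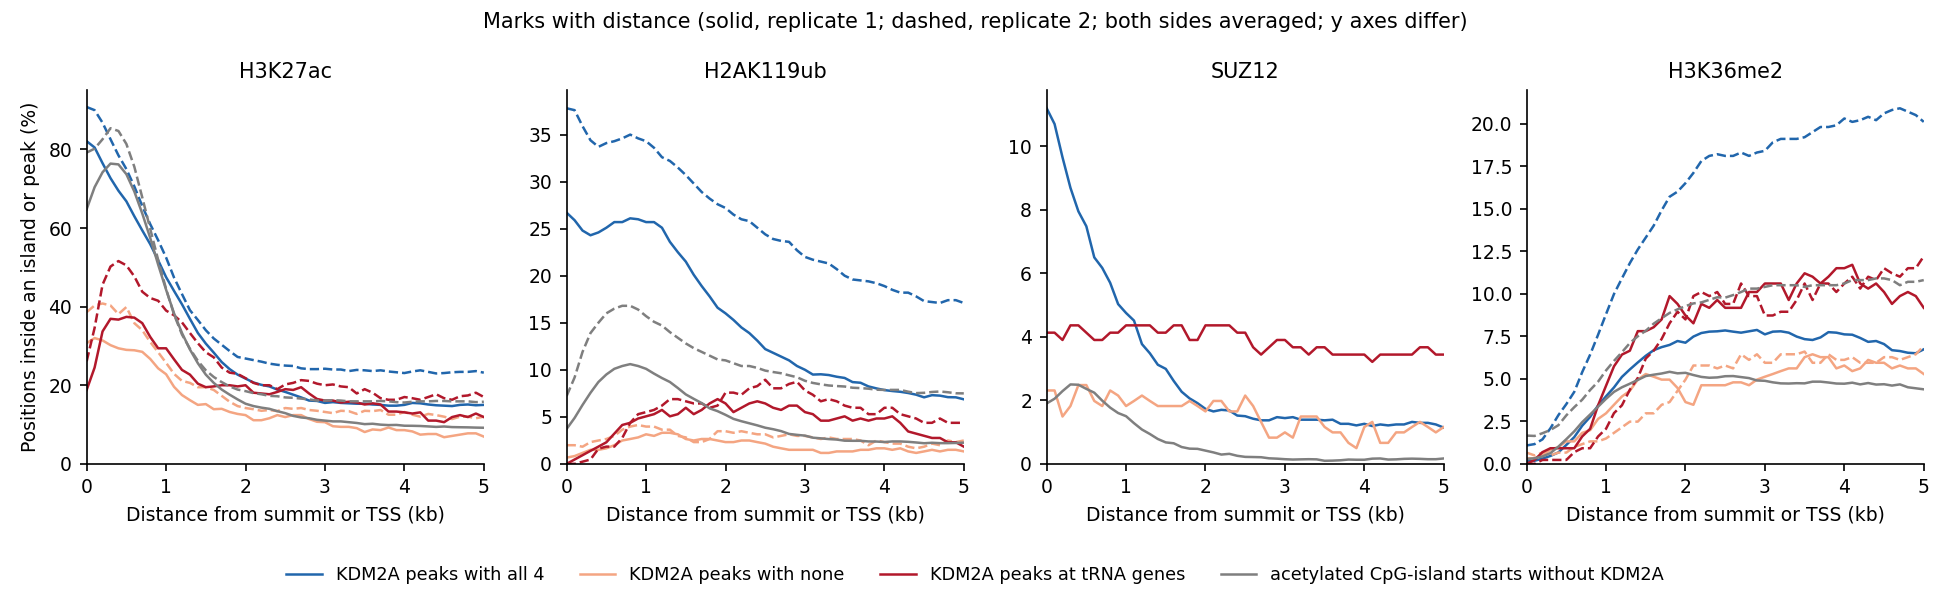
Share of positions inside an H3K27ac, H2AK119ub or H3K36me2 island or a SUZ12 peak (y axes, percent, with different scales) against distance from the KDM2A summit or the promoter start (x axis, kb). Solid lines are replicate 1 and dashed lines replicate 2. H3K36me2 is near 0 at the centre of every set and at 5 kb reaches 6.73% and 20.1% around KDM2A peaks with all 4 lists.

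To compare like with like, CpG-island promoters with H3K27ac in both replicates were split by KDM2A and by the DPPA lists. Here no KDM2A means no narrow KDM2A peak. KDM2A EPIC2 islands reached 50.5% of all promoters and narrow peaks 10.5%, so promoters counted as without KDM2A can hold called KDM2A signal. A split by KDM2A islands was not made. H2AK119ub in both replicates lay at 42.3% of 1590 with KDM2A and all 4 lists and at 33.4% of 3917 with all 4 lists and no KDM2A. With neither KDM2A nor any list it lay at 2.56% of 1135, and with KDM2A and no list at 3.85% of 26. SUZ12 lay at 11.6% and 8.81% with all 4 lists, with and without KDM2A, at 17 of the 1135 with neither and at 0 of the 26. H3K36me2 in the 3 kb window was found in both replicates at 7.11% and 5.95% with all 4 lists, with and without KDM2A, at 2.03% of the 1135 and at 0 of the 26. With 1 to 3 lists H2AK119ub lay at 14.0% of 357 with KDM2A and 8.70% of 3839 without. In percentage points, the shares differed more between no list and all 4 lists than between promoters with and without a KDM2A peak. These are unlike steps, 4 libraries from end to end beside 1 KDM2A list, so they do not rank the factors. The group with KDM2A and no list is too small to place.

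**Figure D4:**
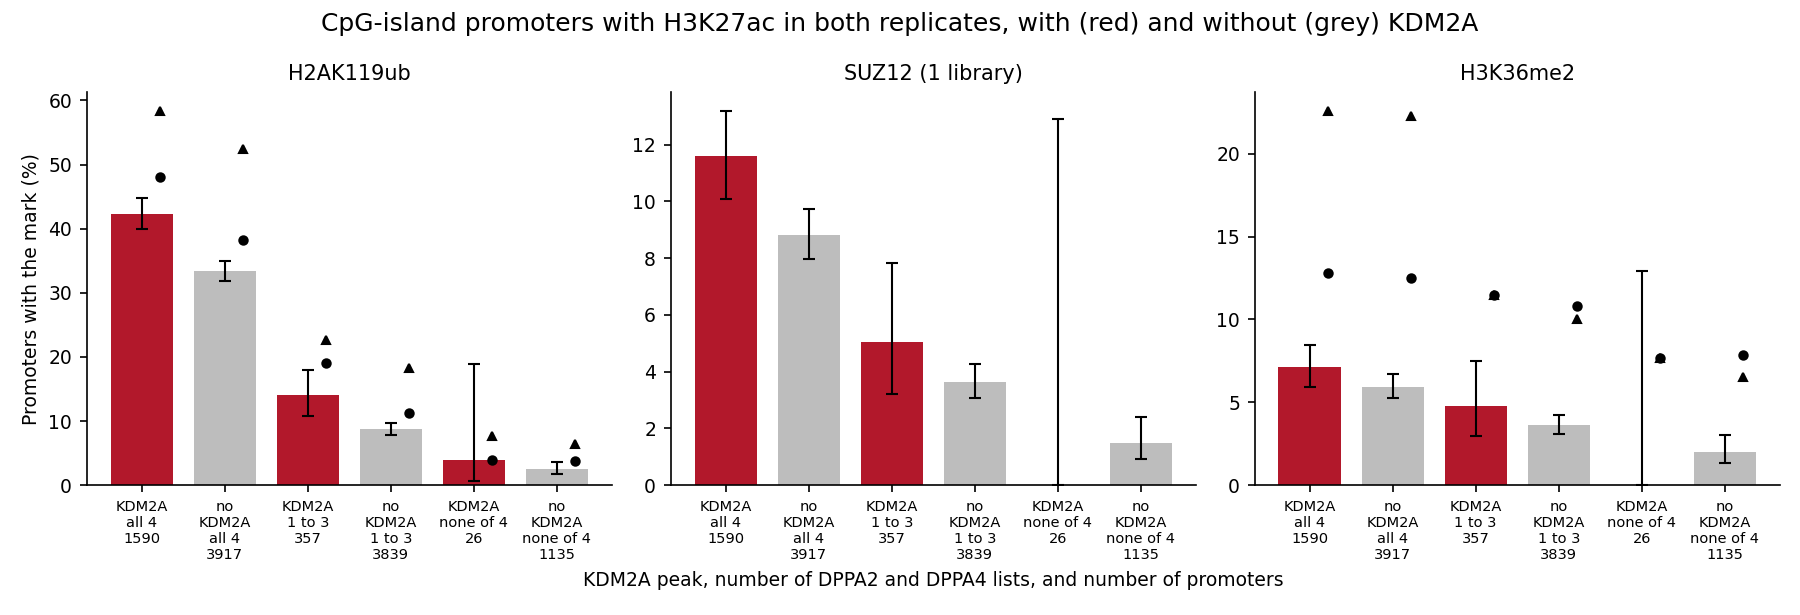
Share of acetylated CpG-island promoters (y axes, percent, with different scales) with H2AK119ub or H3K36me2 in both replicates or with SUZ12. Promoters are split by KDM2A narrow peak (red, with, and grey, without) and number of DPPA2 and DPPA4 lists. Numbers under the bars are promoters, error bars are 95% Wilson intervals, circles are replicate 1 and triangles replicate 2. The bars for H2AK119ub stand at 42.3% and 33.4% with all 4 lists and at 3.85% and 2.56% with none.

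KDM2A at genes of Pol III was examined after these values were seen. tRNA genes are transcribed by Pol III from promoters inside the gene, the A and B boxes, which TFIIIC binds. Of 443 tRNA genes in RefSeq (GRCh38.p14), 247 (55.8%, 51.1 to 60.3) overlapped a KDM2A peak. The highest folds were at TRL-CAG1-7 (16.0), at TRL-AAG2-4 beside the promoter of POLR3E, which encodes a Pol III subunit (16.0), and at TRA-AGC8-1 and TRY-GTA2-1 (15.5). TRP-AGG2-4 and TRP-TGG2-1 shared a peak of 15.2, and TRH-GTG1-7 had 15.0. In the large cluster on chromosome 6, between positions 26286526 and 28989083, 83 of 144 genes had KDM2A. On chromosome 17 it was 30 of 33, on chromosome 1 44 of 98 and on chromosome 7 1 of 22. The B box core GTTCGA, searched on both strands, was in 68.3% of the 200 bp windows at tRNA peaks, 61.6% of those at all tRNA genes, 7.66% at peaks with none of the lists and no tRNA gene and 300 of the 20033 windows at TSSs. tRNA genes occur as near-identical copies, so which copy a short read came from is uncertain.

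The tRNA peaks with none of the DPPA lists were not free of DPPA signal. Narrow DPPA2 peaks covered 21.1% and 27.5% of the 247 tRNA genes with KDM2A, and DPPA4 peaks 40.9% and 11.3%. At the 196 without a KDM2A narrow peak, of which 30.6% had a KDM2A EPIC2 island, the shares were 7.14%, 5.10%, 4.59% and 2.55%. By EPIC2 islands at a log2 fold above 1, DPPA2 covered 44.2% and 55.1% of all tRNA genes, DPPA4 58.9% and 38.8%, and KDM2A 64.8%. SUZ12 islands, from the same input and with 3.77% of the genome within the 2.69% to 4.02% of the DPPA lists, covered 3.39%. Of the 81 tRNA peaks without a narrow DPPA peak, 61.7% and 67.9% had a DPPA2 island, 77.8% and 40.7% a DPPA4 island, and 4 had none. When DPPA2 and DPPA4 were called by islands, the tRNA share of the KDM2A peaks without them was 5.28%, not 26.7%. So the tRNA peaks without DPPA2/4 depend on the caller, while those of the other places did so less, as 106 of the remaining 222 peaks had no DPPA island.

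H3K27ac lay within 500 bp of 58.3% and 74.9% of tRNA genes with KDM2A and of 13.3% of those without in replicate 1 and 47 of 196 in replicate 2. H3K36me2 lay within 500 bp of 2.02% and 0.810% with KDM2A and 8.67% and 13.8% without, and H2AK119ub of 5.67% and 3.64% with and 6.63% and 9.18% without. Over the tRNA peaks themselves H3K36me2 was found in both replicates at 0 of 218. Of 26 arginine tRNA genes 20 had KDM2A and of 13 aspartate tRNA genes 12, against 6 of 29 for cysteine and 6 of 22 for asparagine.

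**Figure D5:**
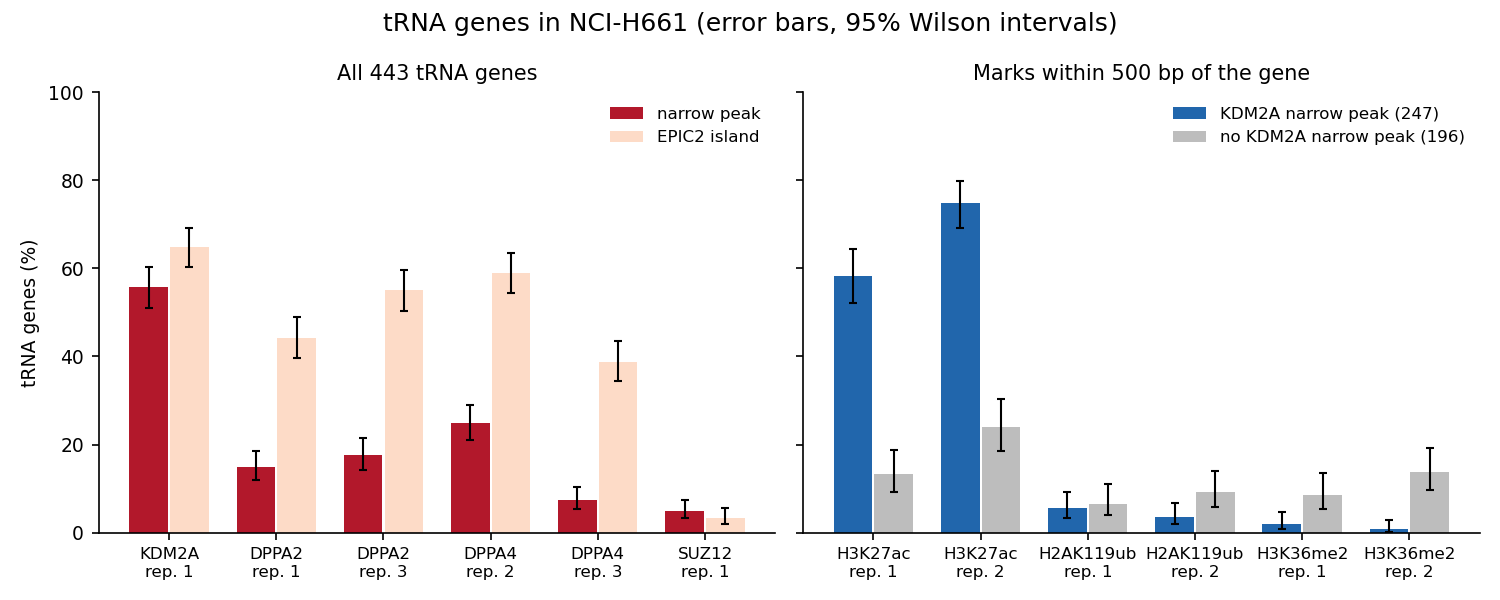
Left, share of all 443 tRNA genes (y axis, percent) covered by a narrow peak (dark) or an EPIC2 island (light) of each factor library. Right, share of tRNA genes with (blue) and without (grey) a KDM2A narrow peak that have a mark within 500 bp. Error bars are 95% Wilson intervals. KDM2A narrow peaks cover 55.8%, SUZ12 islands 3.39%, and H3K27ac is near 58.3% and 74.9% of the genes with KDM2A.

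Other Pol III genes showed KDM2A too. All 17 annotated 5S ribosomal RNA genes on chromosome 1 had a KDM2A peak, with folds from 4.74 (RNA5S4) to 10.4 (RNA5S1), all 4 DPPA lists and no SUZ12. These genes are copies of a tandem array. VTRNA1-2, a vault RNA gene, had 12.8, RN7SK 9.14, VTRNA1-1 8.29 and the Y RNA gene RNY4 7.30. U6 genes had KDM2A at 3 of 6, Y RNA genes at 3 of 4 and vault RNA genes at 2 of 4, while RMRP, RPPH1, BCYRN1 and RN7SL2 had none. The 4 widest tRNA peaks, 1785 to 2211 bp, lay in a repeated tRNA cluster on chromosome 1, with KDM2A folds of 6.35 to 8.71, SUZ12 folds of 11.8 to 15.5 and H3K27ac in neither replicate. Annotated ribosomal RNA genes on chromosomes 21 and 22, counting the 45S precursor and the genes nested in it separately, had KDM2A at 11 of 16.

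The highest fold of the list, 17.1 at chr1:149708592-149708845, lay 73978 bp from the TSS of FCGR1A and overlapped none of the DPPA lists and no tRNA gene of the table. Only the RefSeq tRNA genes were searched, so whether this peak covers a tRNA gene outside that annotation was not tested. It had a GC content of 47.6% and neither H3K27ac nor H2AK119ub. A peak near H2BC13 (11.2, chr6:27777808-27778027) lay in the chromosome 6 tRNA cluster but also outside the annotated tRNA genes.

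Short sequence words at the summits separated the classes as their GC content does. GGGCGG, the core of the SP1 site, searched on both strands, lay in 65.9% of the 200 bp windows with all 4 lists and 18.8% with none. At CpG-island TSSs it lay in 77.0% with KDM2A and 67.0% without, and at all TSSs in 53.5%. CCAAT was in 4.70% of windows with all 4 lists and 24.4% with none, beside 25.2% of TSSs, and CCGGAAG in 4.02% and 2.31%, beside 11.2%. TATAAA was in 0.980% and 12.2%, beside 6.65%. CACGTG was in 4.28% and 2.97%, beside 5.65%, CATGCGC in 1.55% and 2.97%, beside 4.15%, and TGACGTC in 0.929% and 0.660%, beside 3.37%. The summits lay a median of 278 bp from the TSS at promoters, so the windows and those at TSSs cover different stretches.

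Whether the same positions change when DPPA2 and DPPA4 are expressed was asked in NCI-H1299. H3K27ac islands lay at 40.2% and 49.3% of the 3102 positions in the CTRL replicates and at 75.2% and 60.8% in the DOX replicates. Both DOX libraries were above both CTRL libraries, by 23.2 percentage points in the mean. The exact permutation test over libraries (two-sided) gave p = 0.333, the smallest it can give with 2 against 2. At positions with all 4 lists the values were 39.6% and 51.5% against 78.4% and 63.4%, and with none 23.8% and 26.7% against 40.6% and 31.4%. In joined H3K27ac regions the CTRL libraries held 299115 and 301041 reads and the DOX libraries 724586 and 337740. These are reads in called islands and not sequencing depths, and the part of depth in the difference was not tested. H2AK119ub lay at 5.19% and 16.0% of positions in CTRL and 8.03% and 13.4% in DOX (p = 1.00, exact permutation test), and the groups overlap.

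Read counts in regions present in all 4 libraries did not show a change that passed the test. Of 3436 H3K27ac regions edgeR (quasi-likelihood test, Benjamini-Hochberg adjusted p below 0.05 and a log2 change of at least 0.5) called 0%, and of the 430 at KDM2A peaks it called 0. The calls over all regions were not stable when DOX replicate 2 was left out, a fit with 1 DOX library, but the added calls lay outside KDM2A peaks. The median log2 change at KDM2A peaks was 0.15 there. In the full set DESeq2 also called 0, and 16 of the 430 had an unadjusted edgeR p below 0.05. The median log2 change was 0.05 at the 430 regions (quartiles -0.07 and 0.20), 0.07 at the 261 with all 4 lists and 0.01 at the 30 with none, beside -0.01 over all regions. The region at ZFP30 had CPM values (reads scaled to each library's total in joined regions) of 177 and 140 in CTRL and of 269 and 216 in DOX, a log2 change of 0.61 (SE 0.24, edgeR adjusted p = 0.688). The region at KEAP1, a sensor of oxidative stress, had 455 and 541 in CTRL and 381 and 349 in DOX (log2 change -0.43, SE 0.20, edgeR adjusted p = 0.851). In both the groups did not overlap, and neither passed the test. At GSTA4 and RN7SK, where KDM2A had none of the DPPA lists, the values were 244 and 159 against 135 and 133.

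For H2AK119ub only 132 regions could be tested, of which edgeR called 0%, and 12 lay at KDM2A peaks. Of those 12, 0 were called by edgeR or DESeq2 and 0 had an unadjusted p below 0.05, and their median log2 change was -0.16, beside -0.03 over all 132. NOTUM had 107 and 159 reads in CTRL and 102 and 92 in DOX (log2 change -0.28, SE 0.32, edgeR adjusted p = 0.887). The limit on coverage (at least 50% of the region covered by islands in every library) was also left out. This gave 1201 H3K27ac regions at KDM2A peaks, of which 10 were called, all higher with DOX. Over all regions 59 were called, but their total is not given here, so the shares cannot be compared. In regions added this way a library without an island counts as 0 reads, so the islands' presence and the counts cannot be told apart.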

How the data were processed

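ChIP-seq reads were single-end, and the authors trimmed them with Trim Galore 0.6.6, aligned them with BWA 0.7.13 and handled them with SAMtools 1.9 and Picard 2.6.0, per the submitters' processing notes. Narrow peaks were called per library against input with MACS2 by the authors, who deposited a linear fold enrichment, −log10 p and q values and a score for each peak. Broad islands were called by the authors with EPIC2 in 100 bp bins, and the deposited tables hold counts of ChIP reads and of input reads, with p-value, FDR, log2 fold and score. The settings of the caller are stated by the study for DPPA2, DPPA4 and SUZ12 and not by name for KDM2A.

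Islands entered at an FDR under 0.05 where the log2 fold passed 1. A mark was counted at a peak where an island overlapped it by 1 bp. Coordinates are hg38, with promoters from GENCODE 44 and tRNA and other Pol III genes from RefSeq (GRCh38.p14). Peaks were assigned to tRNA genes without a margin and to other Pol III genes with 150 bp on either side. Shares carry 95% Wilson intervals. For NCI-H1299, overlapping islands were merged across the CTRL and DOX libraries of each mark, and regions covered by islands over at least 50% of their length in every library were tested with edgeR 4.0.16 (TMM, quasi-likelihood, replicate number as a block), with DESeq2 1.42.0 as an alternative. On simulated data the edgeR fit recovered 84.5% of 3-fold changes among 3436 H3K27ac regions and 90.9% among 132 H2AK119ub regions. Only 3-fold changes were simulated. The recovery of smaller changes, such as those at the regions named for NCI-H1299, was not tested, so these rates do not bear on them. Reads outside islands are not in the tables, and no blacklist was applied. The labels do not say whether replicates came from separate cultures, so p-values measure the spread between these libraries. Peaks named in the text are those with the highest folds in each class, and the genes by list those with the highest folds in it. The members and lists were chosen with earlier results of these data known, and the tRNA, Pol III and chromosome 16 values were added after seeing the data.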

Additional observations from a re-analysis of the deposited data

Results flagged for a closer look

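Outside the standard chromosomes, which the comparisons used, the KDM2A list held 60 peaks on unplaced or unlocalised contigs and 2 on the mitochondrial genome, a signal in data that no comparison covers. Of the 3164 deposited KDM2A peaks, 46 (1.45%) lay on 2 contigs that bear ribosomal DNA. The other 5 lists had 27 to 81 peaks there (0.0856% to 0.262%), out of 26473 to 70064. The KDM2A count thus lay within their range, and its higher percent stands over a shorter list. No group of 4 or more libraries was present, so no library was checked for standing apart.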

How the results depend on the processing

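Of 117 alternative values over 18 results, 76 stayed within their limits and 41 moved. No called value changed sign, but H1299 medians did, as given further on. Requiring 25% of both peaks gave 13.2% with all 4 DPPA lists and 37.2% with none, and EPIC2 islands gave 79.5% and 7.93%. Leaving out 1 DPPA library gave 62.7% to 67.3% and 9.99% to 14.0%, the last without DPPA2 replicate 1. The tRNA share of peaks with no list, added after seeing the data, was 9.44% at 25% of both peaks, 5.28% by islands, 36.2% at −log10 q of at least 3, and 22.6% to 30.7% without 1 library. H3K27ac was 75.4% with all 4 lists at a log2 fold above 2 and 27.7% with none over the summit base. By single replicates it was 84.9% to 92.5% and 39.3% to 49.5%. H2AK119ub was 12.4% with all 4 at a log2 fold above 2, 31.7% to 45.0% by single replicates (45.0% without replicate 1) and 1.32% to 2.31% with none. H3K36me2 was 0.310% to 1.75% with all 4 by single replicates (1.75% without replicate 1). With none it was 0.660% by either replicate, and 0% at a log2 fold above 2 and at −log10 q of at least 3. SUZ12 with all 4 was 11.5% at a log2 fold above 2, 11.2% over the summit base and 28.3% by islands. Promoters held 61.5% within 500 bp of the TSS and 76.2% with any transcript, and looser CpG islands 94.5%. KDM2A islands covered 64.8% of tRNA genes.

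In NCI-H1299, without a coverage minimum edgeR called 10 of 1201 H3K27ac regions at KDM2A peaks and 59 over all regions. The total of all regions is not given in that setting, so these counts do not show whether the share at KDM2A peaks differs from the rest. The H2AK119ub median at KDM2A peaks was -0.05 there. Reads per covered length gave a H3K27ac median of -0.20, beside -0.26 over all regions, and a H2AK119ub median of 0.11, both of the opposite sign to the reported medians of 0.05 and -0.16. DESeq2 gave -0.13 for H2AK119ub. Leaving out 1 library gave H3K27ac medians of 0.01 to 0.15 and H2AK119ub medians of -0.24 to 0.01 (0.01, above 0, without CTRL replicate 2), in fits without a block that assume a lone library varies like the others. Without DOX replicate 2, which leaves 1 DOX library, the H3K27ac calls over all regions were not stable, and the added calls lay outside KDM2A peaks. The median at KDM2A peaks was 0.15. The fits without the replicate block called 0 regions for both marks, with medians of 0.05 and -0.17, so the block changed no call. The difference between replicates 1 and 2 in CTRL was correlated, across regions, with that in DOX. The correlation was 0.25 for H3K27ac and 0.08 for H2AK119ub, and the labels tie the number to no batch. Fewer than 2 KDM2A libraries means that no KDM2A value has a replicate check, and islands hold only reads that passed the caller.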
